A study of Mus musculus with 4 samples.

Results

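The VEGF and angiopoietin signaling genes were followed through single-nucleus RNA-seq of the mouse kidney: the ligands Vegfa, Vegfc, Angpt1 and Angpt2 and the receptors Flt1, Kdr, Flt4, Nrp1, Tek and Tie1. They were chosen by name, by matching the gene symbol of each row of the count matrices, so that 10 of the 31053 genes listed were members, and all 10 had UMIs (unique molecular identifiers, which count each captured RNA molecule once). The mice were 12-week-old males, and each gave 1 library, made from the middle of the kidney after cortex had been cut away, so that medulla was over-represented. The 2 knockout mice were Hoxb7Cre+;Tfap2a fl/fl, and the 2 controls were Cre-negative Tfap2a fl/fl littermates, so that both groups carried the floxed Tfap2a alleles and no group carried Cre without them. The Hoxb7 promoter drives this Cre in the ureteric lineage, from which the collecting duct arises. The paper places its recombination in collecting ducts and in epithelia of the lower urinary tract. Endothelium, podocytes and the other tubule segments are thus not direct targets of this deletion. Whether the epithelium of the renal pelvis was a target was not tested. Counts came from the 3′ ends of transcripts, where Tfap2a RNA that lacks the floxed exons can still be counted, and therefore did not check the deletion.

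VEGF-A and VEGF-C are secreted growth factors that act on tyrosine kinase receptors of endothelial cells: VEGFR1 (Flt1) binds VEGF-A tightly and signals weakly, VEGFR2 (Kdr) carries most of the VEGF-A signal for endothelial growth and permeability, and VEGFR3 (Flt4) binds VEGF-C. Neuropilin-1 (Nrp1) is a coreceptor for VEGF-A and for class 3 semaphorins. Angiopoietin-1 (Angpt1) activates the endothelial receptor TIE2 (Tek), angiopoietin-2 (Angpt2) acts on the same receptor as a weaker, context-dependent ligand, and TIE1 (Tie1) is an orphan partner of TIE2. In the kidney, podocyte VEGF-A is known to maintain the fenestrated glomerular capillary, and angiopoietins are known for the vasa recta of the medulla.

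The libraries held 22179410 to 44964099 UMIs, of which 48.2% to 84.3% lay in the nuclei kept. After filtering, 27341 nuclei remained, 7737 and 5430 from control mice 1 and 2 and 7997 and 6177 from knockout mice 1 and 2, with medians of 2505 to 2797 UMIs per nucleus. Pairs of libraries shared 7 to 18 barcodes, 0.129% to 0.331% of the smaller library, where 4.94 to 9.11 would be shared at random. Clustering without the 10 members and 26 further genes of the pathway gave 27 clusters, and 12 cell classes named from markers held 25473 nuclei. Proximal tubule (PT) nuclei made up 35.9% of the library of control mouse 2 and 52.5% to 55.1% of the others. Thin limb made up 2.16% and 5.12% of nuclei in controls and 1.29% and 2.14% in knockouts. Collecting duct principal cells made up 4.38% and 8.88% against 3.38% and 3.33%. Deep medullary epithelium of the pelvis made up 0.853% and 1.73% against 0.413% and 0.502%. Endothelium and interstitial cells were also lower in both knockouts, and PT, distal convoluted tubule and connecting tubule higher. Whether tissue sampling or genotype underlay these shares was not tested. Of the listed markers, 9 of 9 for endothelium, 7 of 7 for podocytes and 9 of 10 for interstitial cells were highest in their class, but 5 of 7 for thin limb and 5 of 9 for collecting duct principal cells (CD-PCs). Levels are given as CPM, the usual scaling of counts to a fixed library total, here the UMI total of a class in 1 mouse, in the order control mouse 1, control mouse 2, knockout mouse 1 and knockout mouse 2. They are compared between cell types for the same gene and never between genes, since transcript length and capture differ.

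Over all nuclei, Vegfa had 20360 UMIs, Nrp1 10669, Angpt1 7394, Flt1 5791, Tek 3164, Angpt2 1933, Kdr 1876, Vegfc 922, Tie1 670 and Flt4 421. Endothelium held more than 85% of the class UMIs of 5 receptor genes: 95.3% for Flt1, 94.9% for Kdr, 93.9% for Flt4, 91.7% for Tie1 and 86.1% for Tek. The proximal tubule, the most numerous class with 13786 nuclei, held 67.2% of the Vegfa UMIs and 83.8% of the Angpt1 UMIs. Thus most receptor RNA was endothelial, while most ligand RNA was epithelial.

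Promoter windows of the 5 endothelial receptor genes are shown because endothelium held most of the UMIs of these genes. Each runs from 250 bases before to 50 bases after an annotated transcript start, is taken from RefSeq on GRCm38.p6, and is written 5′ to 3′ on the strand of the gene. Capitals mark GGAA or TTCC, the core letters bound by ETS factors, a family known for endothelial genes.
Flt1: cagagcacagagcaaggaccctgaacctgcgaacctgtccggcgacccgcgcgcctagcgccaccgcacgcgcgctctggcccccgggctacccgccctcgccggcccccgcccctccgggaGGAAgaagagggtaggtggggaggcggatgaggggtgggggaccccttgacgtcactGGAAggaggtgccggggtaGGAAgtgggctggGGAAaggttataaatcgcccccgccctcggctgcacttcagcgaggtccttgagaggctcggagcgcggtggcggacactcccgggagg
Kdr: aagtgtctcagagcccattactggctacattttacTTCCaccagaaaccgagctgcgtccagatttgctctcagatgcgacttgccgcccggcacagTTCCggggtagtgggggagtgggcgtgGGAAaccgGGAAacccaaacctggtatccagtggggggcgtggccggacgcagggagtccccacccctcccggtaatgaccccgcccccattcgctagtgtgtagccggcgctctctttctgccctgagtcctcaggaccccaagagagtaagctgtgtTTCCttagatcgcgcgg
Flt4: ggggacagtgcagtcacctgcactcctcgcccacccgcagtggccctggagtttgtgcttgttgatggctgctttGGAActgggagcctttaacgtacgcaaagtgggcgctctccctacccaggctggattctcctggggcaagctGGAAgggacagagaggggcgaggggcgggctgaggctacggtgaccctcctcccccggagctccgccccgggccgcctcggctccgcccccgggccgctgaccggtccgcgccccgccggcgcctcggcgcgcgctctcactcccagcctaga
Tek: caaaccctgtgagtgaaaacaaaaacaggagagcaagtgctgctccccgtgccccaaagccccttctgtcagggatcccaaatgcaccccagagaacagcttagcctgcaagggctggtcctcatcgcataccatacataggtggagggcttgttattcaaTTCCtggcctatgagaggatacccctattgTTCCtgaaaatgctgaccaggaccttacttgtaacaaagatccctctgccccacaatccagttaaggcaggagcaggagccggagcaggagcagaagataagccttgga
Tie1: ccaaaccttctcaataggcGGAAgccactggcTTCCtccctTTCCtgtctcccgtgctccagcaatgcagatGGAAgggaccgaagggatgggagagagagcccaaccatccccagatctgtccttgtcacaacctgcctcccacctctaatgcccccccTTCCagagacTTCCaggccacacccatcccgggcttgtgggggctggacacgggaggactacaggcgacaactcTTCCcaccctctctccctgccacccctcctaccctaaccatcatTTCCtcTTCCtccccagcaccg
The windows lie at chr5:147725962-147726261 (minus strand) for Flt1, chr5:75978406-75978705 (minus) for Kdr, chr11:49609429-49609728 (plus) for Flt4, chr4:94739039-94739338 (plus) for Tek and chr4:118489800-118490099 (minus) for Tie1. They held 4, 5, 2, 2 and 9 matches to GGAA or TTCC, searched on both strands. Such a match was present in 31532 of all 32851 windows of this length, with a median of 3, so its presence set none of these windows apart. The AP-2 core GCCNNNGGC, which reads the same on both strands and is bound by the family of TFAP2A, was matched once each in the windows of Flt1, Flt4 and Tie1 and in 16.6% of all windows. Of the 10 members, 8 had a window, and Angpt1 and Angpt2 had none.

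Vegfa, the main VEGF ligand, was highest in podocytes, the epithelial cells that wrap the glomerular capillaries. Its podocyte levels were 1612, 2969, 2114 and 1778 CPM (mean 2118 ± 605, SD, n = 4 mice). The next class by mean level, the thick ascending limb (TAL), had 310.1, 385, 277 and 328 CPM, so every mouse was higher in podocytes. Podocytes exceeded TAL by a log2 difference of 2.36 ± 0.157 (SE), with an adjusted p of 4.15e-29 in the quasi-likelihood test of edgeR, adjusted over all genes after Benjamini and Hochberg, with the mouse as a term. Vegfa was higher in podocytes than in each of the 11 other classes, which held for 1.26% of the 20150 genes tested. These podocytes were 114 nuclei with 615 Vegfa UMIs.

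Among the tubule segments, mean Vegfa levels ran in the order TAL (mean 325 CPM), PT (284), distal convoluted tubule (DCT, 261), connecting tubule (CNT, 237), collecting duct intercalated cells (CD-ICs, 206), thin limb (125), deep medullary epithelium of the pelvis (DMEP, 103) and CD-PCs (71.6). Neighbors in this order differed at PT over DCT (log2 difference 0.46 ± 0.154, adjusted p 0.0129, edgeR) and at CD-ICs over thin limb (0.74 ± 0.188, adjusted p 0.00119, edgeR), and the other neighboring pairs did not pass the test. The test used TMM scaling for RNA composition, which raised PT relative to CPM (mean log2 factor -0.447, against -0.101 in DCT). With it TAL and PT stood in the reverse order without a difference (-0.09 ± 0.140, adjusted p 0.639, edgeR), so their order depended on scaling. Classes outside the epithelium had means near that of CD-PCs, with 71.6 CPM in endothelium, 66.2 in immune cells and 65.9 in interstitial cells. CD-PCs and endothelium did not differ by the test (log2 difference -0.029 ± 0.187, adjusted p 0.954, edgeR). Free RNA, read from barcodes with under 100 UMIs, held 193 to 381 CPM of Vegfa. The 3 endothelial subclusters with most nuclei and no markers of a second class had Vegfa at 26.1, 18.97 and 15.3 CPM, whereas the 2 subclusters that also carried tubule markers had 238 and 223 CPM. The remaining subcluster without markers of a second class (77 nuclei) was above these 3 by log2 differences of 0.53 ± 0.654, 1.13 ± 0.760 and 1.61 ± 0.838. None of these differences passed the test (adjusted p 0.703, 0.474 and 0.291, edgeR). The part of tubule markers in the endothelial level was not tested.

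**Figure D1:**
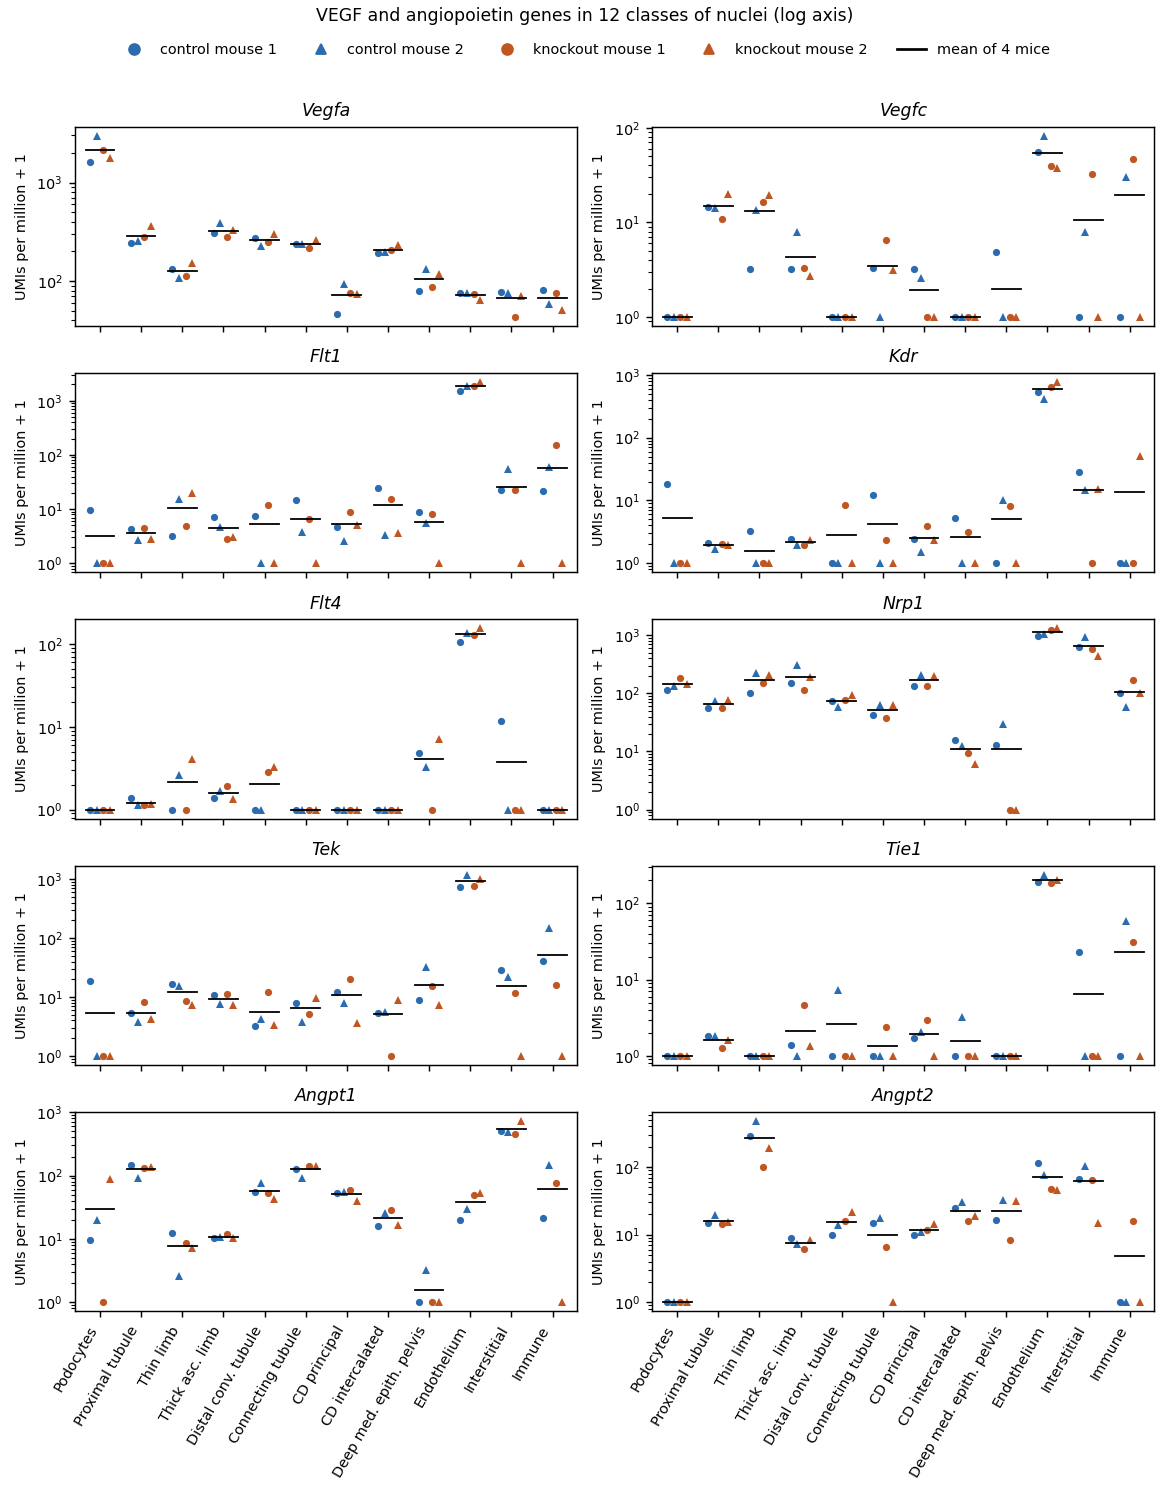
Level of each of the 10 genes in the 12 cell classes, 1 panel per gene, in CPM plus 1 on a log axis. Points are mice by genotype and horizontal lines are means over the 4 mice. Vegfa peaks in podocytes (mean 2118 CPM), the receptor genes in endothelium, Angpt1 in interstitial cells (540.3 CPM) and Angpt2 in the thin limb (265 CPM).

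The receptor genes marked the endothelium. Flt1, the decoy-like VEGF receptor, was at 1537, 1856, 1851 and 2200 CPM there (mean 1861 ± 271, SD, n = 4), and at 57.3 CPM or below in every other class mean. Kdr, the principal VEGF-A receptor, was at 533, 416, 646 and 761 CPM in endothelium and at 13.7 CPM or below elsewhere. Flt4, the VEGF-C receptor, was at 104, 137, 129 and 153 CPM, against at most 3.09 CPM in the means of other classes. Tie1 was at 191, 237, 182 and 203 CPM, and its highest mean elsewhere, 22.1 CPM in immune cells, came from 4 UMIs. Tek, the angiopoietin receptor, was at 748, 1187, 763 and 990 CPM in endothelium and at 50.3 CPM in immune cells, from 8 UMIs. No mouse overlapped between endothelium and another class for Flt1, Kdr, Flt4, Tek and Tie1. Endothelium exceeded the next class by a log2 difference of 5.25 ± 0.329 for Flt1 and 5.38 ± 0.334 for Kdr (edgeR, adjusted p 1.96e-30 and 2.02e-31).

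Nrp1 was less restricted than the other receptors. In endothelium it reached 973, 1060, 1217 and 1308 CPM, and in interstitial cells, the fibroblasts and pericytes around vessels and tubules, 633, 924, 580 and 447 CPM. These groups did not overlap by mouse, and endothelium was higher by a log2 of 1.05 ± 0.178 (adjusted p 5.98e-07, edgeR). Interstitial cells were above 10 of the other classes. TAL (190.3 CPM), thin limb (168), CD-PCs (168) and podocytes (143) followed without a difference between neighbors, while CD-ICs were at 9.99 CPM. Endothelium held 33.2% of Nrp1 UMIs. In total, 6 of the 10 members (Flt1, Kdr, Flt4, Nrp1, Tek and Tie1) were higher in endothelium than in each of the 11 other classes, against a background of 1.93% of all genes. Podocytes lacked UMIs of Flt4, Tie1, Vegfc and Angpt2, and 3 UMIs, the limit that a count of 0 allows, would be 9.74 CPM there (counting error only).

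Vegfc, the ligand of VEGFR3, was low throughout and highest in endothelium, at 54.5, 81.0, 38.8 and 36.4 CPM. Endothelium was above 10 of the 11 other classes and not above immune cells (18.6 CPM from 4 UMIs, log2 difference 1.70 ± 0.703, adjusted p 0.105, edgeR). It was above all 11 when knockout mouse 1 was left out and when subclusters with markers of a second class were left out. The PT, at 13.9 CPM, held 72.7% of the Vegfc UMIs by its number of nuclei. Its levels of 13.4, 13.1, 9.87 and 19.05 CPM stood above the free RNA of the same mouse, which held 4.53, 2.67, 4.76 and 8.45 CPM.

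Endothelial nuclei were clustered again, without the members, into 6 subclusters. E1 (886 nuclei) was led by Btnl9 and Esm1, E2 (351 nuclei) by Nlgn1 and also Vcam1 and Igf1, and E3 (201 nuclei) by Nupr1 and also Cryab, while E5 (77 nuclei) carried 8 of 8 markers of arteries and descending vasa recta. E4 (111 nuclei) and E6 (56 nuclei) also carried markers of PT and of TAL and were left out of the comparison. Between the other 4 subclusters, 8 of the 10 members differed in at least 1 of 6 pairs, all but Vegfa and Angpt1, with 33 of 60 tests passing, where 24.8% of all genes differed in at least 1 pair. With E4 and E6 in the fit, 10 of 10 members and 47.5% of all genes differed in at least 1 pair. Leaving them out was chosen after the values were seen.

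Kdr set E1 apart. It was at 1191, 903, 1008 and 1461 CPM in E1, against 162, 168, 225 and 231 CPM in E2, and lower still in E3 and E5, with means of 108 and 97.2 CPM. Each mouse was higher in E1 than every mouse in the others. E1 exceeded E2 by a log2 of 2.65 ± 0.212 (adjusted p 6.67e-33, edgeR), a pair in which 5.57% of genes differed. Nrp1 was likewise highest in E1 and next in E2, but its E3 and E5 means stood in the reverse order. The Nrp1 means were 2101 CPM in E1, 579 in E2, 468 in E5 and 207 in E3. For Nrp1, E1 was above E2 by 1.95 ± 0.194 (adjusted p 3.06e-21, edgeR). Flt1 had means of 3097, 1665, 525 and 809 CPM in E1, E2, E3 and E5, with E1 above E2 by 1.01 ± 0.187 (adjusted p 3.48e-06, edgeR).

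Tek was distributed differently. Its levels were 1375, 1910, 1383 and 1600 CPM in E2 and 1061, 1569, 838 and 1232 CPM in E1, which overlapped and did not differ by the test (log2 0.34 ± 0.180 higher in E2, adjusted p 0.42, edgeR). E3 and E5 were lower, with means of 506 and 300.1 CPM, E2 exceeding E3 by 1.83 ± 0.212 and E5 by 2.70 ± 0.269 (adjusted p 1.14e-15 and 2.94e-21, edgeR), pairs in which 11.2% and 7.13% of genes differed. Tie1 and Flt4 varied less, with subcluster means of 152 to 277 CPM for Tie1 and 80.2 to 189 CPM for Flt4, and for both E1 was above E3 and E5.

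The ligands made in endothelium lay elsewhere. Vegfc was concentrated in the arterial subcluster E5, at 496, 609, 394 and 199 CPM, against means of 66.8 CPM in E2, 28.6 in E1 and 22.0 in E3. No mouse overlapped, and E5 exceeded E2 by a log2 of 2.44 ± 0.340 and E3 by 4.75 ± 0.477 (adjusted p 7.67e-11 and 1.07e-20, edgeR). Angpt2 was highest in E3, at 373, 205, 327 and 137 CPM, against 68.5, 133, 44.9 and 111 CPM in E2 and 15.6, 9.51, 16.9 and 13.4 CPM in E1. E3 exceeded E1 by 3.93 ± 0.342 and E2 by 1.49 ± 0.297 (adjusted p 1.93e-28 and 1.78e-05, edgeR), without overlap. Between E1 and E3 17.8% of genes differed, and between E3 and E5 7.62%. E3 thus combined the highest Angpt2 with the lowest Flt1 and Nrp1 means of these 4 subclusters, and E5 combined the highest Vegfc with the lowest Tek and Kdr means. Between E3 and E5, however, Flt1, Tek and Kdr did not differ by the test (adjusted p 0.151, 0.053 and 0.663, edgeR), while Nrp1 did (0.00942). The E5 values rest on 77 nuclei.

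**Figure D2:**
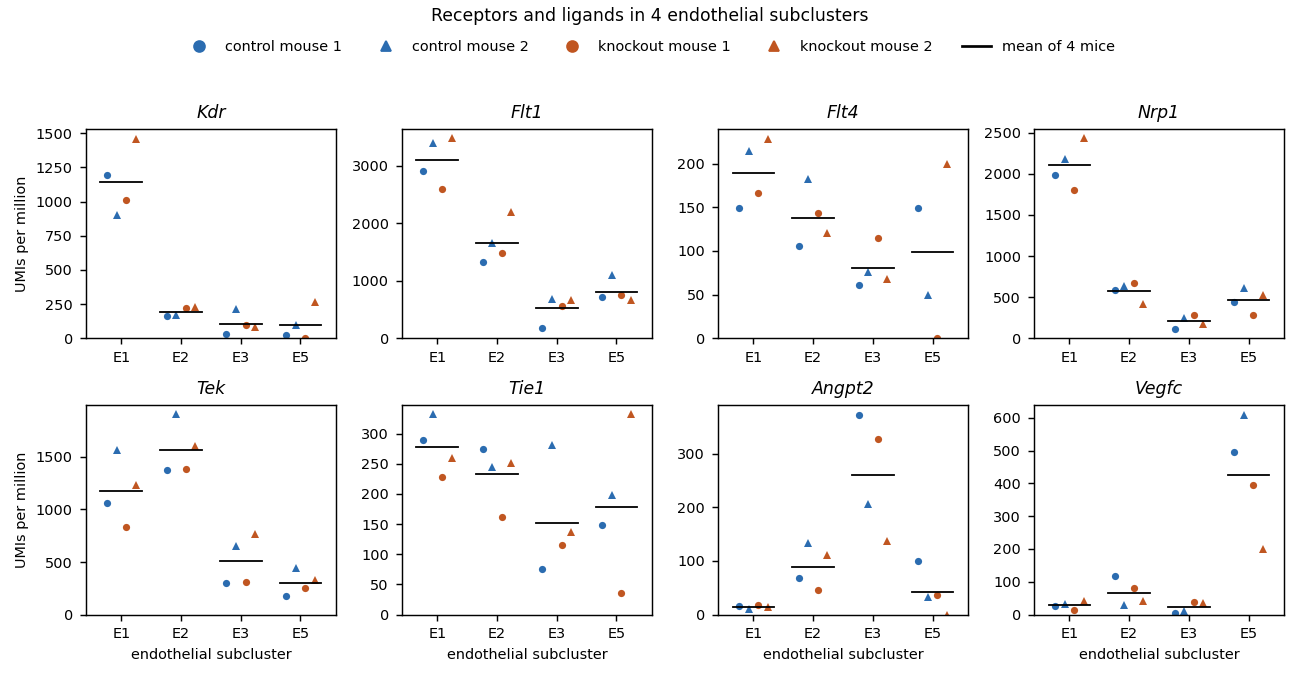
Levels of 8 genes in the 4 endothelial subclusters without markers of a second class, in CPM, with points for mice and horizontal lines for means over 4 mice. Kdr is highest in E1 (mean 1141 CPM), Angpt2 in E3 (260.4 CPM) and Vegfc in E5 (425 CPM), while Tek is high in both E1 and E2.

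Angpt1, the activating ligand of TIE2, had its highest class mean in interstitial cells, at 502, 479, 454 and 726 CPM. CNT followed at 128, 91.9, 139 and 143 CPM and PT at 145, 89.2, 133 and 134 CPM, without overlap with interstitial cells. The log2 difference was 1.77 ± 0.20 over CNT and 1.49 ± 0.177 over PT (adjusted p 1.07e-13 and 6.00e-13, edgeR). Interstitial cells were above each of the 11 other classes, as were 1.61% of all genes. Of 2 interstitial subclusters with 120 nuclei each, I1 (led by Hpgd, with Col14a1) had 842, 769, 624 and 914 CPM and I2 (led by Kcnd2, with Tnc) had 255, 263, 207 and 482 CPM. I1 was higher by 1.47 ± 0.285 for Angpt1 and by 1.04 ± 0.272 for Nrp1 (adjusted p 1.46e-05 and 0.00339, edgeR), where 7.23% of genes differed.

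The PT mean hid a steep difference between its clusters. Cluster 2, one of those with the highest levels of the early-segment transporters Slc5a2 and Slc5a12, had Angpt1 at 574, 498, 522 and 526 CPM. Cluster 5, which shared these transporters, had 191, 164, 191 and 212 CPM. In cluster 4 the mean was 53.3 CPM, in cluster 1 it was 5.01 CPM, and in cluster 3, which was high for the late-segment genes Slc7a13 and Cyp7b1, it was 2.42 CPM. The levels did not overlap by mouse between clusters 2, 5 and 4 or between these and the last 2. Cluster 2 exceeded cluster 3 by a log2 of 7.76 ± 0.148 and cluster 5 by 1.49 ± 0.0873 (adjusted p 5.58e-47 and 1.85e-21, edgeR), where 43.4% and 10.7% of all genes differed.

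The Angpt1 level of cluster 2 overlapped with that of interstitial cells by mouse (means 530.1 and 540.3 CPM). After TMM scaling, which weighs differences in RNA composition between cell types, interstitial cells were lower than cluster 2 by a log2 difference of -0.43 ± 0.120 (adjusted p 0.00282, edgeR, a comparison chosen after the values were seen), where 33.3% of genes differed, so the order of these 2 sites depended on scaling. The summed level of 10 interstitial markers, all with a UMI, was 9.38 to 15.1 CPM in cluster 2 and 34.6 to 47.0 CPM in cluster 3, where Angpt1 was lowest. Cluster 2 alone had 4385 of the 7394 Angpt1 UMIs.

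Nrp1 and Vegfa ran differently along the PT. Nrp1 had means of 22.5, 63.0, 105, 123 and 7.77 CPM in clusters 2, 5, 4, 1 and 3, and cluster 1 exceeded cluster 3 by a log2 of 3.98 ± 0.163 (adjusted p 7.50e-30, edgeR). Vegfa had means of 265, 318, 346, 347 and 174 CPM in the same order, and cluster 1 exceeded cluster 3 by 1.08 ± 0.0799 (adjusted p 7.02e-18, edgeR). For this pair 26.6% of genes differed. The clusters with the most Angpt1 were therefore not those with the most Nrp1, and cluster 3 had the lowest mean of these 5 for all 3 genes.

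**Figure D3:**
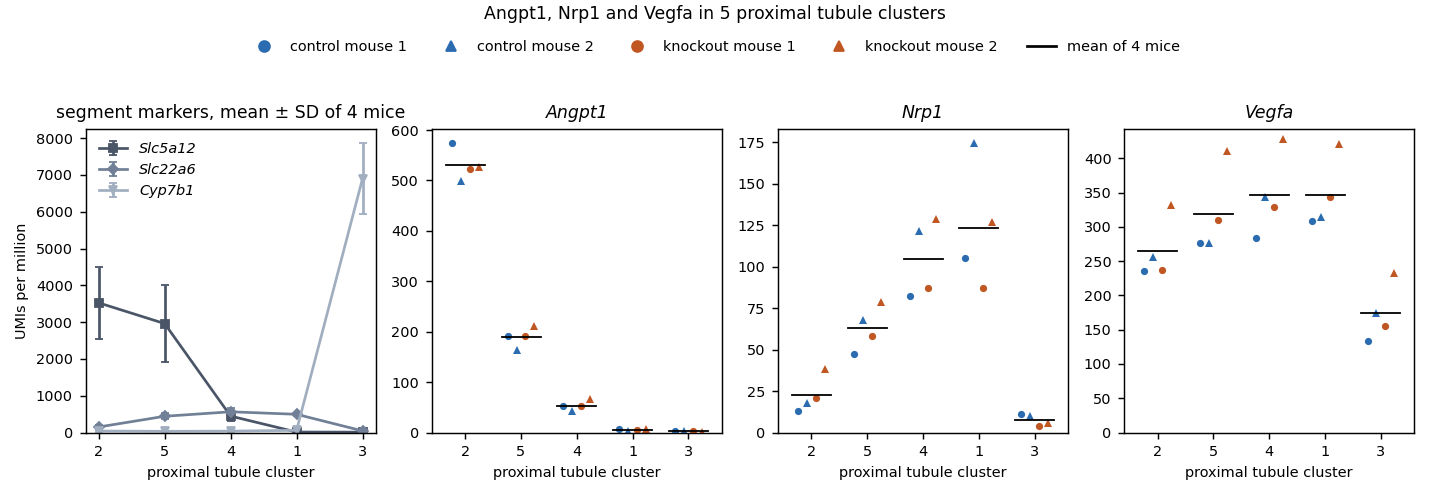
Levels in 5 proximal tubule clusters, in CPM: 3 segment markers as mean and SD over 4 mice, and Angpt1, Nrp1 and Vegfa with points for mice and horizontal lines for means. Angpt1 falls from 530.1 CPM in cluster 2 to 2.42 CPM in cluster 3, while Nrp1 is highest in cluster 1 (123 CPM).

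Regional differences also appeared in the distal segments. In TAL, cluster 0 had more Vegfa (mean 362 against 258 CPM) and Nrp1 (209 against 143 CPM) than cluster 6, which was high for Enox1, by log2 differences of 0.49 ± 0.0905 and 0.51 ± 0.103 (adjusted p 4.57e-06 and 3.45e-05, edgeR, 12.8% of genes differing). The mice overlapped between the clusters for both genes. Angpt1 was low in both, 5.55 and 18.4 CPM. Among CD-PCs, the subclusters C2 and C4, which carried 4 of 4 cortical markers, had Vegfa at means of 127 and 125 CPM, against 17.8 and 34.3 CPM in C1 and C3. Nrp1 was reversed, with 37.2 and 26.3 CPM in C2 and C4 against 191 and 322 CPM in C1 and C3. C2 exceeded C1 by a log2 of 2.79 ± 0.294 for Vegfa and by 2.79 ± 0.341 for Angpt1, and C1 exceeded C2 by 2.43 ± 0.258 for Nrp1 (adjusted p 7.83e-20, 8.29e-15 and 1.62e-19, edgeR), where 27.5% of genes differed. No mouse overlapped between C1 and C2 for these 3 genes.

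Angpt2, the second angiopoietin, was highest in the thin limb of Henle's loop. Its levels were 292, 479, 99.1 and 192 CPM in thin limb (520 UMIs), 115, 74.7, 45.8 and 44.1 CPM in endothelium and 65.5, 103, 63.3 and 14.0 CPM in interstitial cells. Thin limb exceeded endothelium in each mouse, by a log2 of 1.76 ± 0.20 (adjusted p 1.25e-13, edgeR), although knockout mouse 1 in thin limb was below control mouse 1 in endothelium. It was above each of the 11 other classes, as were 0.586% of all genes. Endothelium and interstitial cells did not differ. The PT held 39.9% of Angpt2 UMIs at a mean of 15.1 CPM, near the 7.48 to 15.3 CPM of free RNA. In thin limb the 9 endothelial markers, all with a UMI, summed to 8.99 to 71.4 CPM, and control mouse 1 had 292 CPM of Angpt2 with a marker sum of 8.99 CPM.

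Within thin limb, Angpt2 was highest in T1 (222 nuclei, with Aqp1, the water channel of the descending limb, among the leading genes), at 420.5, 799, 203 and 434 CPM. T2 (193 nuclei, led by Fst) had 458, 657, 139 and 139 CPM, and T3 (170 nuclei, led by Mapk12) had 85.3, 182, 41.6 and 119 CPM. T1 exceeded T3 by a log2 of 2.03 ± 0.289 and T2 exceeded T3 by 1.65 ± 0.298 (adjusted p 2.54e-10 and 9.67e-07, edgeR), whereas T1 and T2 did not differ by the test (0.38 ± 0.249, adjusted p 0.576, edgeR). Of all genes, 7.91% differed between T1 and T3, 16% between T2 and T3 and 4.14% between T1 and T2.

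**Figure D4:**
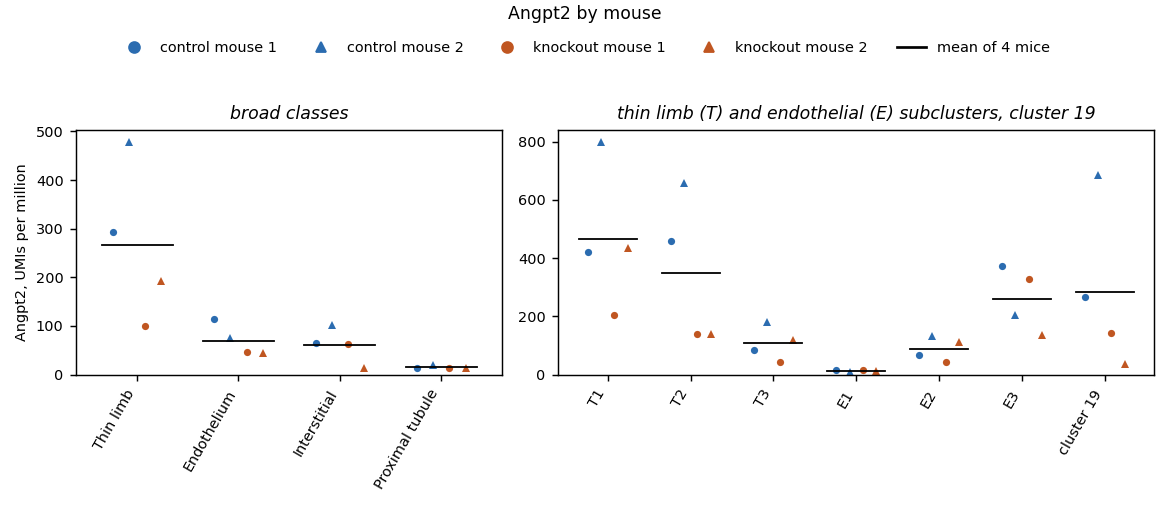
Angpt2 level in 4 cell classes and within thin limb (T1 to T3), endothelium (E1 to E3) and the unnamed cluster 19, in CPM, with points for mice by genotype and horizontal lines for means over 4 mice. The highest class mean is that of thin limb (265 CPM), and within endothelium that of E3 (260.4 CPM).

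The genes with the pattern most like each member were ranked by Pearson's r of log2(CPM + 10) over 22 named clusters, among 14837 genes, as a description. Closest were Shank3 for Flt1 (r = 0.987), Gpihbp1, which anchors lipoprotein lipase on capillaries, for Kdr (0.987), Sox7 for Flt4 (0.993), She for Tek (0.985), 3110099E03Rik for Tie1 (0.998) and Plcl2 for Vegfc (0.885). The other members had weaker nearest patterns: St3gal3 for Vegfa (0.866), Nkd2 for Angpt2 (0.817), Pkd1 for Nrp1 (0.80) and Gm14964 for Angpt1 (0.795). The clusters come from the same 4 libraries, so they are not independent points.

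Of 26 further genes of the pathway, 25 could be tested between classes. Endothelium exceeded each of the 11 other classes for 9 of them: the TIE2 phosphatase Ptprb (1100.5 CPM), the semaphorin receptor Plxnd1 (207 CPM), Sema3f (118 CPM), nitric oxide synthase Nos3 (63.0 CPM), the VEGF-responsive tip cell gene Esm1 (341 CPM), the Notch ligand Dll4 (73.5 CPM), the apelin receptor Aplnr (38.4 CPM), HIF-2α (Epas1, 440.4 CPM) and the HIF hydroxylase Egln3 (62.4 CPM). Interstitial cells did so for 2, the neuropilin Nrp2 (524 CPM) and Svep1 (562 CPM), a large matrix protein known to act with TIE receptors. Podocytes did so for Sema3g (986 CPM) and DMEP for Sema3c (398 CPM), as for 0.859% of genes in DMEP. Hif1a led in CD-PCs (245 CPM), which were above 10 of the other classes. Of the other ligands, Vegfb had its highest mean in TAL (118 CPM) and Vegfd in interstitial cells (87.0 CPM), each above 9 classes.

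Between genotypes, none of the members passed the test in any class. Of 72 tests of a member in a class, 34 fold changes were higher and 38 lower in knockout mice. With edgeR's quasi-likelihood test and adjustment over all genes, 0 were called, while 1 higher and 6 lower had an unadjusted p under 0.05, and DESeq2 called 0, with 3 at an unadjusted p under 0.05. Of all gene tests in the 12 classes, 0.00605% were called and 2.99% had an unadjusted p under 0.05. In endothelium, 0.0231% of genes were called. Knockout and control mice did not overlap in 28 of 72 tests, 38.9%, 12 above and 16 below, against 29.4% of tests of all genes. In endothelium the members' median log2 fold change was 0.07, and that of all genes was 0.0011. The further pathway genes gave 0 calls in 154 tests by edgeR, 82 higher and 72 lower, with 3 and 6 at an unadjusted p under 0.05. P-values here rest on 2 mice per genotype and on a spread that is moderated across all genes tested, not on the spread of 1 gene alone.

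For the receptors in endothelium, Kdr was at 533 and 416 CPM in controls and 646 and 761 CPM in knockouts, without overlap, a log2 fold change of 0.58 ± 0.274 (edgeR, p 0.0512, adjusted p 1.00). Nrp1 was at 973 and 1060 CPM against 1217 and 1308 CPM, also without overlap, a log2 fold change of 0.33 ± 0.281. Flt1 (0.27 ± 0.301), Flt4 (0.25 ± 0.272), Tek (-0.13 ± 0.306) and Tie1 (-0.13 ± 0.262) had overlapping groups. E1, where Kdr was highest, made up 48.4% and 41.5% of endothelial nuclei in controls and 66.6% and 52.4% in knockouts, and within E1 Kdr was at 1191 and 903 against 1008 and 1461 CPM, which overlapped. The part of these shares in the Kdr values was not tested.

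The ligand Vegfa was at 1612 and 2969 CPM in control podocytes and 2114 and 1778 CPM in knockout podocytes, a log2 fold change of -0.25 ± 0.386 whose sign changed without control mouse 2. In PT it was at 244 and 252 CPM against 281 and 360.2 CPM, without overlap (0.35 ± 0.172, edgeR, p 0.0927). In TAL it was at 310.1 and 385 against 277 and 328 CPM (-0.21 ± 0.229). In CD-PCs, which derive from the lineage in which Hoxb7Cre is active, it was at 45.9 and 93.0 against 75.3 and 72.3 CPM (0.06 ± 0.345), and this sign depended on the setting. C2 and C4, both higher in Vegfa than C3, together made up 27.1% and 45.6% of CD-PC nuclei in controls and 48.9% and 40.3% in knockouts. Within C3 Vegfa was at 51.4 and 51.3 against 16.6 and 18.02 CPM, without overlap, from 45 UMIs (-1.55 ± 0.574, edgeR, p 0.0150, adjusted p 1.00), while in C1, C2 and C4 the log2 fold changes were 0.24 ± 0.658, -0.12 ± 0.364 and 0.08 ± 0.520. Angpt1 in interstitial cells was at 502 and 479 against 454 and 726 CPM (0.23 ± 0.402). Vegfc in endothelium was at 54.5 and 81.0 against 38.8 and 36.4 CPM, without overlap (-0.79 ± 0.320, edgeR, p 0.0252, adjusted p 1.00).

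Angpt2 had lower values in both knockout mice than in both controls at its main sites. In thin limb it was at 292 and 479 CPM in controls and 99.1 and 192 CPM in knockouts, a log2 fold change of -1.44 ± 0.414 (edgeR, p 0.00415, adjusted p 1.00). In endothelium it was at 115 and 74.7 against 45.8 and 44.1 CPM, -1.07 ± 0.308 (edgeR, p 0.00341, adjusted p 0.653). In interstitial cells it was at 65.5 and 103 against 63.3 and 14.0 CPM (-1.01 ± 0.671). At other sites, with lower means, both directions occurred. Angpt2 was above both controls in both knockouts in DCT and CD-PCs, and below both controls in CNT and CD-ICs. Over the 14 alternative settings, the change was between -1.98 and -0.99 in thin limb, and between -1.32 and -0.71 in endothelium. Of the settings that keep 2 mice per genotype, the change passed the test in both classes with a replicate block. That fit pairs the mice by a number the labels do not say is a pairing. Of all genes it called 12 of 11249 in thin limb and 88 of 12962 in endothelium, against 0 and 3 without the block. Without control mouse 1, which leaves 1 control, the change in thin limb was -1.74.

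The make-up of endothelium and of thin limb also differed between mice, and its part in the Angpt2 values was not tested. E3, the subcluster with most Angpt2, made up 17.3% and 14.6% of endothelial nuclei in controls and 4.02% and 11.2% in knockouts. Within E3, Angpt2 was at 373 and 205 against 327 and 137 CPM, which overlapped (-0.39 ± 0.534), and within E1 and E2 the changes were 0.22 ± 0.676 and -0.38 ± 0.535. In thin limb, T1 made up 34.1% and 38.1% of nuclei in controls and 18.4% and 30.3% in knockouts. T2, which did not differ from T1 in Angpt2 by the test, made up 33.5% and 20.5% in controls and 41.7% and 28.0% in knockouts. T1 and T2 together made up 67.7% and 58.6% against 60.2% and 58.3%. A further subcluster, T5, led by the PT transporter Slc5a12, drew 24 of its 25 nuclei from knockout mouse 1. PT markers summed to 1175 and 601 CPM in control thin limb and 2124 and 411 CPM in knockout thin limb. Within T2, Angpt2 was at 458 and 657 CPM in controls and 139 and 139 CPM in knockouts, without overlap (-2.01 ± 0.467, edgeR, p 0.000106, adjusted p 0.397). Within T1 it was at 420.5 and 799 against 203 and 434 CPM, which overlapped (-0.95 ± 0.496). Within subclusters without markers of a second class, 0 of 69 tests of members were called by edgeR, with 0 higher and 3 lower at an unadjusted p under 0.05, and of all gene tests there 0.00685% and 3.26% passed these thresholds.

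Angpt1 in endothelium was at 19.1 and 28.6 CPM in controls and 48.2 and 51.8 CPM in knockouts, without overlap (1.12 ± 0.343, edgeR, p 0.00515, adjusted p 0.72). Without the subclusters that carried markers of a second class the log2 fold change was 0.29 ± 0.438, and in E4, the one with PT markers, Angpt1 was at 28.7 and 45.3 against 164 and 196 CPM. PT markers in endothelium, 9 of 9 with a UMI, summed to 2521 and 2199 CPM in controls and 3054 and 2528 CPM in knockouts. Free RNA held 35.2 and 28.7 CPM of Angpt1 in controls and 48.4 and 89.4 CPM in knockouts. The endothelial Angpt1 level was thus near or below that of free RNA in every mouse, and the part of free RNA in it was not tested. Nrp1 in DMEP was at 11.7 and 29.3 CPM in controls and had 0 UMIs in both knockouts, 16 UMIs in all (edgeR, p 0.00924, adjusted p 0.934), and 3 UMIs over the 2 knockouts, the limit that this count of 0 allows, would be 10.02 CPM, close to the level of control mouse 1.

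**Figure D5:**
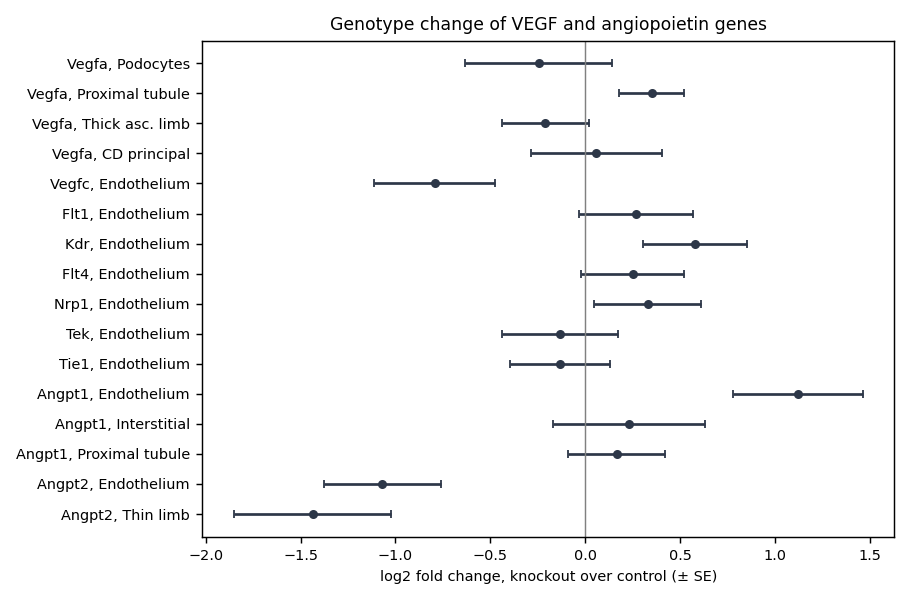
Log2 fold change of knockout over control mice for 16 combinations of a member and a class, with bars of 1 SE from edgeR (2 mice per genotype). Of these, Angpt2 lies furthest below 0 in thin limb (-1.44) and endothelium (-1.07), and none passed the adjusted test.

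Changes were also compared between classes as an interaction of genotype and class. Of 292 tests of members over 66 pairs of classes, 0 were called by edgeR and 27, or 9.25%, had an unadjusted p under 0.05. Of all gene tests over these pairs 0.00196% were called and 2.81% had an unadjusted p under 0.05, and 0.0248% of genes were called in at least 1 pair. Pairs share classes, so the tests of 1 gene are not independent. Esm1, a target of VEGF signaling and a leading gene of subcluster E1, had the smallest p of the further pathway genes in endothelium and is named for that, after its values were seen. It was at 232 and 168 CPM in controls and 448 and 516 CPM in knockouts, without overlap, a log2 fold change of 1.27 (edgeR, p 0.000309, adjusted p 0.40). Without control mouse 1, which leaves 1 control, the log2 fold change was 1.53.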

How the data were processed

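Nuclei of 4 mouse kidneys were profiled by single-nucleus RNA-seq (10x 3′ chemistry). Per the labels and the study's methods, the authors aligned reads to mm10 with Cell Ranger 3.0.2, and they deposited raw UMI counts of 31053 genes for 6794880 barcodes per library. No sample was left out. In each library the top 10000 barcodes by UMIs were taken, and those with 500 genes or fewer, 4000 genes or more, or 5% mitochondrial UMIs or more were dropped. Nuclei were integrated and clustered in Seurat 5.3.0 (2000 variable genes without the members and pathway genes, 30 dimensions, resolution 0.5), and classes were named from marker lists. Clusters of damaged nuclei, clusters with markers of 2 classes and unnamed clusters were left out of class comparisons. Doublets were marked by scrublet and left out as an alternative. The limits for damaged and mixed clusters, the comparisons between clusters or subclusters, and the interaction between classes were chosen after the clusters were seen.

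Counts were summed per mouse and class. edgeR 4.0.16 tested genes with at least 10 UMIs by its quasi-likelihood test with TMM scaling and Benjamini-Hochberg adjustment over all genes of a comparison, called at 0.05. Comparisons between classes had the mouse as a term. DESeq2 1.42.0, no TMM, no filter, a replicate block, leaving out each mouse, doublets, free RNA, a mitochondrial limit of 1%, members kept in clustering and resolution 0.8 were alternatives. On simulated data the genotype test recovered 0% of genes changed 2-fold in podocytes, 3.09% in thin limb, 4.26% in PT and 13.1% in endothelium. Of genes changed 4-fold it recovered 18.3%, 47.4%, 66.3% and 70.1%, with 3 to 11 false calls per class. The 0 calls between genotypes therefore do not show that changes of such size were absent. By rule, the genes named were the 10 members, pathway genes called between genotypes or described by their leading class, and the 3 genes most alike in pattern to each member (the first of which is given). Esm1 and Egln3 between genotypes were named after their values were seen. The members and lists were chosen with earlier results of these data known. Counting intervals and limits cover counting error only. The promoter windows are from RefSeq (GRCm38.p6). Same-numbered mice deviated together with correlations of 0.035 to 0.325, and the labels tie no control to a knockout, so numbers were not taken as pairs. Libraries of mice numbered 1 held 42138345 (control) and 44964099 (knockout) UMIs, with median mitochondrial shares of 1.66% and 1.05%. Those of mice numbered 2 held 24998797 and 22179410 UMIs, with 0.671% and 0.417%. The part of these library differences in the genotype results was not tested.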

Additional observations from a re-analysis of the deposited data

Results flagged for a closer look

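In 5 clusters outside the 12 classes, 4 of 50 combinations of a member and a cluster are given here because both knockout mice lay above both controls with more than 3 UMIs each. Among the 19 combinations with at least 10 UMIs, 5 (26.3%) lay above without overlap and 3 (15.8%) below, against 15.2% above and 15.9% below of all gene tests in these clusters. Those below were Vegfc in 2 clusters and Angpt2 in 1. In a cluster with markers of 2 classes, Vegfa averaged 317 CPM in knockouts (288 and 346, against 247 and 262 in controls). In an unnamed cluster of 230 nuclei, Vegfa averaged 191 CPM (212 and 169, against 142 and 146) and Angpt1 averaged 109 CPM (106 and 113, against 68.9 and 33.8). In a second unnamed cluster of 173 nuclei, Nrp1 averaged 245 CPM (243 and 247, against 219 and 221). These differences were not tested.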

How the results depend on the processing

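The number of classes below the leading class changed by at most 1 for Vegfc under the alternatives run. Calls of members between genotypes numbered 0 and became 2 with the replicate block (Angpt2 in thin limb, adjusted p 0.000722, and in endothelium, adjusted p 0.0424, edgeR). Of all genes the block called 12 of 11249 in thin limb and 88 of 12962 in endothelium, where the main fit called 0 and 3. Calls of pathway genes became 1 without the filter (Esm1, where 59 of 18990 genes were called) and 1 with the replicate block (Esm1). Without control mouse 1, which leaves 1 control, the log2 fold change was -1.74 for Angpt2 in thin limb. In endothelium it was then 1.53 for Esm1 and -1.85 for Egln3. The block pairs mice by number, and the labels do not say that they were paired. The sign of some uncalled fold changes turned. Vegfa in CD-PCs ranged from -0.36 to 0.69 when a mouse was left out and became -0.0055 without doublets, -0.19 after subtraction of free RNA, -0.029 under 1% mitochondrial UMIs and -0.041 without mixed subclusters. With a mouse left out, Vegfa in podocytes ranged from -0.67 to 0.26 and Tek in endothelium from -0.43 to 0.25, both highest without control mouse 2, and Tek was 0.021 without knockout mouse 1. Tie1 in endothelium ranged from -0.28 to 0.031, the latter without control mouse 2, and was 0.10 under 1% mitochondrial UMIs. Angpt1 in interstitial cells ranged from -0.11, without knockout mouse 2, to 0.55. The cause was not tested. The mitochondrial limit gave no genotype test in immune cells. Each genotype had 2 mice, and podocytes, interstitial cells and immune cells had 114, 240 and 108 nuclei over the 4 mice.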

Other observations

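Angpt2 was also present in the unnamed cluster of 230 nuclei, with 208 UMIs, at 267 and 687 CPM in controls and 142 and 37.6 CPM in knockouts, a cluster that entered no class comparison.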
